A study of Homo sapiens with 33 samples.

Results

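ALPP, ALPL, ALPI and AADAC were followed in 3 established head and neck squamous cell carcinoma (HNSCC) cell lines during cetuximab treatment. These 4 genes of the 56470 gene symbols in the count table were taken by their symbols. ALPP and AADAC were selected on their fold change between cetuximab and PBS in SCC1, where they were among the largest, and ALPL and ALPI are the other alkaline phosphatases. The SCC1 difference between treatments is therefore given as a description, without a test. The slopes of ALPP and AADAC over the days in SCC1 are also given as a description. SCC6 and SCC25 were not used for the choice and were tested.

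The cells were SCC1 (UM-SCC-1), SCC6 (UM-SCC-6) and SCC25, each a single cultured line. They received 100 nM cetuximab, an antibody that blocks the epidermal growth factor receptor (EGFR), or PBS as the untreated control. RNA was taken from PBS cells on days 0 to 5 and from cetuximab cells on days 1 to 5, with 1 library for each line, treatment and day, which gave 33 libraries. For cetuximab-treated SCC6 the labels give day 2 for 2 libraries, called 2a and 2b here, and day 1 for none. By the sample labels the medium of SCC1 and SCC25 held hydrocortisone and that of SCC6 did not have it listed, while the study's methods describe the same medium for all 3 lines. If the labels hold, line and medium cannot be told apart. The 5 days stood in for replicates in each group, and p-values measure only the spread between these libraries.

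Alkaline phosphatases are enzymes held on the outer cell surface by a glycosylphosphatidylinositol (GPI) anchor, where they remove phosphate groups from many substrates. ALPP is the placental form and ALPI the intestinal form. ALPG, listed in the count table under its older symbol ALPPL2, is the germ-cell form, and ALPL is the tissue-nonspecific form of liver, bone and kidney, which hydrolyses pyrophosphate and pyridoxal phosphate. ALPP is also known as an ectopic product of some tumours. AADAC, arylacetamide deacetylase, is an unrelated enzyme of the endoplasmic reticulum, best known from liver and intestine, where it hydrolyses drugs and lipid esters.

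ALPP lies on chromosome 2 at chr2:233243434-233247599 on the plus strand (GRCh37, GENCODE), followed by ALPPL2 at chr2:233271554-233275424 and ALPI at chr2:233320835-233325463. The gap between ALPP and ALPPL2 is 23954 bases and that between ALPPL2 and ALPI 45410 bases. ALPL is elsewhere, at chr1:21835890-21904903, and AADAC is at chr3:151531861-151546276. AADACP1, a pseudogene by its symbol and a long noncoding RNA gene in this annotation, lies 29127 bases before AADAC, at chr3:151488184-151502733. AADACP1 is no member and was included after its values were seen.

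How far reads can be assigned to ALPP alone depends on its likeness to ALPPL2. Their coding sequences matched at 1561 of 1596 aligned bases (97.8%), with a longest identical run of 339 bases, and 922 of the 2724 windows of 31 bases in the longest ALPP transcript (33.8%) also occur in that of ALPPL2. The values of both genes are therefore uncertain where the estimation had to divide shared reads.

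ALPI is less alike, with 89.7% identity to ALPP over the coding sequence, and ALPL had 69% and no shared window of 31 bases. AADAC and AADACP1 shared 20 of 1533 such windows (1.3%).

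The sequences before the 3 chromosome 2 genes are shown because these genes are alike there too and yet differed in level in these cells. Each line gives the 150 bases before the RefSeq transcription start (GRCh38.p14, plus strand), with matches to TTTAAA and AGGTCA in capitals. ALPP is chr2:232378601-232378750, ALPPL2 is chr2:232406694-232406843 and ALPI is chr2:232456003-232456152 in that build.
ALPP: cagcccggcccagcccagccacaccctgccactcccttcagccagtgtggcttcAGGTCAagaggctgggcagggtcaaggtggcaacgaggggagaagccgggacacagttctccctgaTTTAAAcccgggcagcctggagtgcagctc
ALPPL2: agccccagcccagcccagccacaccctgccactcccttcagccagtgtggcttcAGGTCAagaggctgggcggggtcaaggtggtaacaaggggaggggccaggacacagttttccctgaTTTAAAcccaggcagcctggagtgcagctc
ALPI: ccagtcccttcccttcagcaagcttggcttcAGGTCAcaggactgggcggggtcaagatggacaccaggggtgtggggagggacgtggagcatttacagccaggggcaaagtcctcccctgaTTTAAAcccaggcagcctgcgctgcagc

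Over 250 bases before the start, ALPP and ALPPL2 were 92.3% identical and ALPP and ALPI 76.1%. The motif TTTAAA was found in all 3 genes and, searched on both strands, in 11.3% of the 35116 starts in the RefSeq table. AGGTCA, the core of a nuclear receptor motif, was also found in all 3, and in 12.1% of all starts. Both motifs occurred together in 1.4%. ALPL and AADAC held neither within this window. The AP-1 motif TGANTCA was found in none of the members, against 6.57% of all starts. GGGCGG, the GC box, was found in ALPPL2, in ALPI and at start 2 of ALPL, and in 42.6% of all starts. It was not found at starts 1 and 3 of ALPL. The motifs were chosen after the sequences were read, and no matches of different motifs overlapped in these genes.

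Total counts ranged from 28508758 to 80727478 per library, and the deepest 2 were the SCC6 cetuximab libraries of days 4 and 5. Levels are in CPM, counts scaled to a common library total with TMM factors. Squamous epithelial markers were present in each line, with EGFR between 576 and 1144 CPM, although in SCC6 KRT5 was between 1.76 and 14.5 CPM, KRT14 between 1.84 and 12.5 CPM and DSG3 between 1.01 and 5.25 CPM. The leukocyte list was carried by CD68, a lysosomal gene, and its defining marker PTPRC was at or under 0.302 CPM in every library. As these are bulk samples, fewer cells of a type and less RNA per cell cannot be told apart.

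ALPP, the placental alkaline phosphatase, was low in untreated SCC1 and high under cetuximab on each day. In SCC1 with PBS its level was 12.9 CPM on day 0 and 12.7, 3.35, 2.52, 2.18 and 7.06 CPM on days 1 to 5. With cetuximab it was 93.1, 105, 108, 181 and 275 CPM on days 1 to 5. The groups did not overlap, and the lowest treated library was 7.33 times the highest PBS library of days 1 to 5. ALPP was chosen for this difference, and the share of all genes without overlap was not counted in any line. The means were 5.56 ± 4.44 CPM with PBS and 152 ± 76.8 CPM with cetuximab (SD, n = 5 each), a fitted log2 fold change of 4.80. In this contrast 44.8% of the 17984 genes tested were differentially expressed (22.7% higher and 22.1% lower), with edgeR's quasi-likelihood test and a Benjamini-Hochberg adjusted p under 0.05.

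ALPP was not the largest difference. Its log2 fold change of 4.80 lay between that of SERPINB13, a squamous serpin, at 5.25 and that of OLR1, a scavenger receptor, at 4.66. AADAC, at -5.40, lay between MMP1, a collagenase, at -5.72 and VIM, a mesenchymal filament gene, at -3.88. Since ALPP and AADAC were chosen on this contrast, these places are a description and no test.

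AADAC showed the opposite pattern in SCC1. With PBS it was at 14.8 CPM on day 0 and at 26.4, 68.7, 70.3, 53.2 and 47.9 CPM on days 1 to 5. With cetuximab it was at 1.61, 1.78, 1.51, 0.780 and 0.482 CPM. The lowest PBS library of days 1 to 5 was 14.8 times the highest treated one, so the groups did not overlap, and the day 0 library was also above all treated ones. AADAC, too, was chosen for this difference. The means were 53.3 ± 17.9 and 1.23 ± 0.567 CPM (SD, n = 5 each), a log2 fold change of -5.40.

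Per kilobase of transcript, a scale on which genes can be compared, the order of both genes was exchanged between the treatments of SCC1. ALPP was at 2.02 ± 1.61 CPM per kilobase with PBS and 55.3 ± 27.9 with cetuximab. AADAC was at 34.1 ± 11.4 with PBS and 0.788 ± 0.363 with cetuximab (SD, n = 5 each). In SCC6, ALPP was above AADAC in both treatments, at 50.0 ± 9.47 against 8.46 ± 1.49 CPM per kilobase with PBS.

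All treated SCC1 libraries were run on 1 flow cell, which is read from the sample labels, and 4 of the 5 PBS libraries of days 1 to 5 on another. The PBS library of day 5 shared the flow cell of the treated ones and had 7.06 CPM of ALPP and 47.9 CPM of AADAC, outside the treated range for both genes. With the flow cell as a covariate 4197 genes were called in SCC1 in place of 8061, and the counts of SCC1 genes given here are without it. The summed level of the 8 squamous markers moved with treatment in SCC1, from 1795 to 3105 CPM with PBS and from 7145 to 12310 CPM with cetuximab. Between PBS and cetuximab it overlapped in SCC6, at 2038 to 3209 and 2584 to 3546 CPM, and in SCC25, at 12950 to 19180 and 15420 to 18750 CPM. Its part in the difference of ALPP was not tested. The summed level of the 5 fibroblast markers, carried in SCC1 by COL1A1 and COL1A2, was higher with cetuximab in each line without overlap. It was 21.0 to 32.7 CPM with PBS and 49.7 to 146 CPM treated in SCC1, 2.85 to 4.94 and 8.78 to 97.1 CPM in SCC6, and 133 to 176 and 221 to 336 CPM in SCC25. Of its defining markers, DCN was at most 1.15 CPM in SCC1 and 0.188 CPM in SCC6, and LUM at most 0.883 and 0.215 CPM, while in SCC25 they reached 11.5 and 107 CPM. PDGFRB reached 0.386 CPM in SCC1, 8.35 CPM in SCC6 and 0.951 CPM in SCC25, and COL1A1 reached 88.1 CPM in SCC6. The leukocyte sum was lower with cetuximab in SCC1, from 17.4 to 47.9 CPM with PBS and from 6.32 to 9.57 CPM treated, and in SCC6, from 16.4 to 18.8 and from 3.95 to 7.15 CPM, and overlapped in SCC25 at 168 to 234 and 144 to 175 CPM. The 3 endothelial markers summed to at most 2.78 CPM. The part of these lists in the differences of ALPP and AADAC was not tested.

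**Figure D1:**
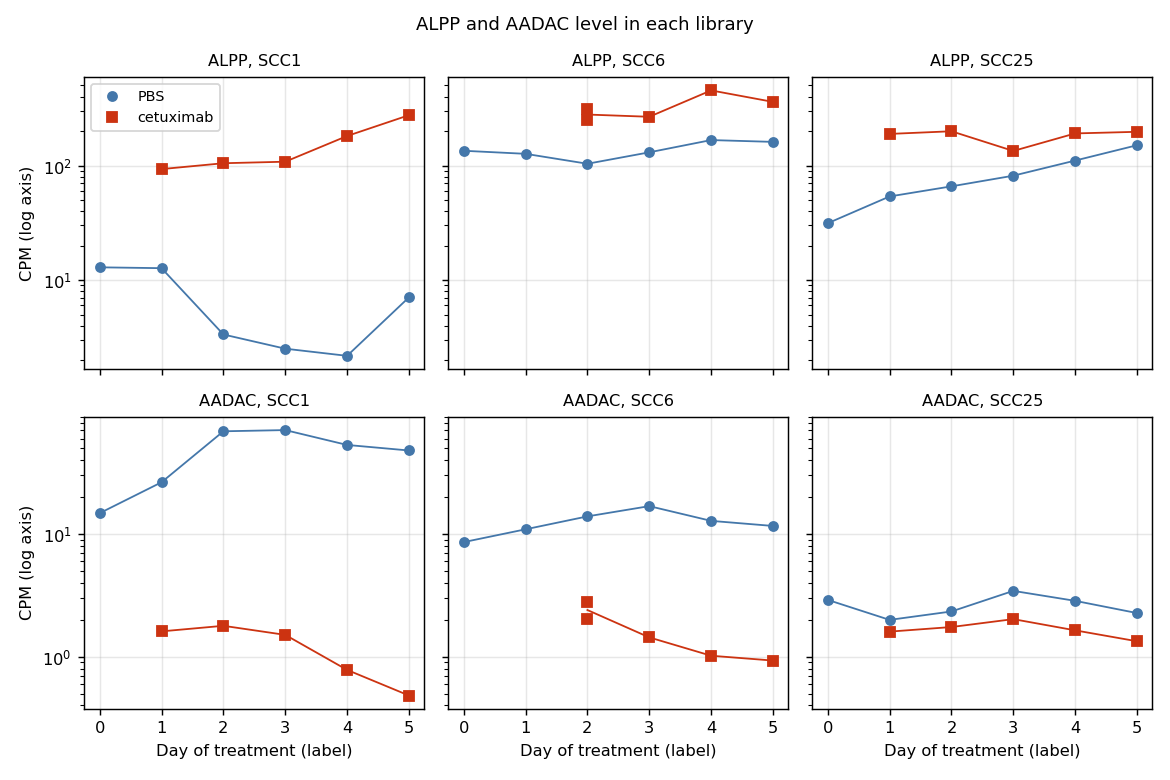
ALPP (upper row) and AADAC (lower row) level in CPM on a log axis against the labelled day, for SCC1, SCC6 and SCC25; each point is 1 library, circles are PBS, squares are cetuximab, and lines join the daily values (the mean of 2a and 2b in SCC6). Treated AADAC lies between 0.482 and 2.78 CPM in every line, while treated and PBS points of ALPP come together by day 5 in SCC25.

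In SCC6, which was not used to choose the genes, ALPP was already high without the drug and rose further. With PBS it was at 135 CPM on day 0 and 126, 104, 130, 167 and 161 CPM on days 1 to 5. With cetuximab it was at 309 (2a), 248 (2b), 266, 453 and 359 CPM. All treated libraries were above all PBS libraries, and the means were 138 ± 26.1 and 327 ± 82.2 CPM (SD, n = 5 each). The log2 fold change was 1.22 (SE 0.175, 95% interval 0.84 to 1.60, adjusted p = 0.000421 by edgeR's quasi-likelihood test).

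AADAC fell in SCC6. It was at 8.59 CPM on day 0 and 10.9, 13.9, 16.9, 12.8 and 11.6 CPM on days 1 to 5 of PBS. With cetuximab it was at 2.02 (2a), 2.78 (2b), 1.44, 1.02 and 0.929 CPM, below every PBS library. The log2 fold change was -3.07 (SE 0.296, 95% interval -3.71 to -2.42, edgeR adjusted p = 3.37e-05). Both members that could be tested in SCC6 therefore passed the threshold, against 30.1% of the 17387 genes tested in this line (15.6% higher and 14.6% lower). With day as a block 7961 genes were called in place of 5238. On the flow cell that held both treatments of SCC6, ALPP was between 104 and 167 CPM in 4 PBS libraries and between 248 and 309 in 3 treated ones, and AADAC between 11.6 and 16.9 against between 1.44 and 2.78 CPM.

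In SCC25, ALPP rose as well, but its PBS level climbed over the days. It was at 31.3 CPM on day 0 and at 53.7, 65.8, 81.5, 110 and 150 CPM on days 1 to 5 of PBS. With cetuximab it was at 189, 199, 134, 191 and 197 CPM, so that the groups overlapped through the treated library of day 3 and the PBS library of day 5. The log2 fold change over the 5 days was 0.99 (SE 0.237, 95% interval 0.47 to 1.50, edgeR adjusted p = 0.0142). From day 1 to day 5 the log2 ratio of treated to PBS was 1.81, 1.60, 0.72, 0.79 and 0.39, so that the treatments came closer.

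The climb in untreated SCC25 passed its own test, with a slope of 0.37 log2 units per day over days 1 to 5 (SE 0.0503, edgeR adjusted p = 0.00421), where 2.23% of 19101 genes had a slope past the threshold. Under cetuximab the ALPP slope in SCC25 was 0.00 per day (95% interval -0.10 to 0.11, edgeR adjusted p = 0.984), where 1.09% of genes passed, with days 1 and 2 on the flow cell of the PBS libraries and days 3 to 5 on another. Without the PBS library of day 5 the PBS slope was 0.34 with an adjusted p of 0.157. As a contrast of days 4 and 5 with days 1 to 3, the difference was 0.97 log2 units with an edgeR adjusted p of 0.191.

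AADAC was low in SCC25 in both treatments. With PBS it was at 2.90 CPM on day 0 and 1.99, 2.34, 3.44, 2.85 and 2.27 CPM on days 1 to 5, and with cetuximab at 1.60, 1.74, 2.02, 1.64 and 1.34 CPM. The groups touched only at the treated library of day 3 and the PBS library of day 1, and treated was below PBS on each of the 5 days. It fell by 0.62 on the log2 scale (SE 0.166, 95% interval of the change -0.98 to -0.26, edgeR adjusted p = 0.0235). This call was lost with the flow cell as a covariate (-0.61, adjusted p = 0.132) and when any of 4 libraries was left out (PBS of days 3 and 4, cetuximab of days 4 and 5), with adjusted p from 0.0538 to 0.0688. Of the 3 members tested in SCC25, 2 passed, against 18.3% of the 19101 genes tested (8.80% higher and 9.50% lower), or 1417 genes in place of 3496 with the flow cell as a covariate.

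Across lines, the spread of AADAC was wide with PBS and narrow with cetuximab, and for ALPP SCC1 alone was far below the others with PBS. Mean ALPP with PBS was 24.7 times higher in SCC6 than in SCC1, and with cetuximab 2.15 times. Between SCC6 and SCC25, ALPP overlapped with PBS, at 104 to 167 and 53.7 to 150 CPM, and did not overlap with cetuximab, at 248 to 453 and 134 to 199 CPM. Mean AADAC with PBS was 20.7 times higher in SCC1 than in SCC25, and with cetuximab the highest mean (SCC25) was 1.35 times the lowest (SCC1). SCC1, SCC6 and SCC25 had 53.3 ± 17.9, 13.2 ± 2.33 and 2.58 ± 0.572 CPM of AADAC with PBS, in groups that did not overlap, and 1.23 ± 0.567, 1.64 ± 0.771 and 1.67 ± 0.249 with cetuximab (SD, n = 5 each), where the neighbours in the order do not differ beyond their spread.

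The comparison of the lines that were not used for the choice was tested. No flow cell held libraries of both SCC6 and SCC25, so line and flow cell cannot be told apart. With PBS, AADAC was higher in SCC6 than in SCC25 by 2.41 log2 units (SE 0.17, edgeR adjusted p = 6.73e-08), in a contrast where 72.1% of 18667 genes passed. ALPP was higher in SCC6 by 0.62 (SE 0.245, edgeR adjusted p = 0.0362), a call that was lost without the SCC6 library of day 4 or 5 or the SCC25 library of day 1, 2 or 3 (adjusted p from 0.078 to 0.116) and when ALPP and ALPPL2 counts were summed (0.48, adjusted p = 0.118).

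The response to cetuximab of AADAC differed between these lines, with a fall that was larger in SCC6 by 2.46 log2 units (interaction -2.46, SE 0.335, 95% interval -3.15 to -1.76, edgeR adjusted p = 5.31e-05). In this test 14.6% of 20558 genes passed, 2992 genes, and 6623 with line and day as a block. For ALPP the difference of the responses was 0.24 (95% interval -0.42 to 0.91, edgeR adjusted p = 0.661), which leaves room for a difference in either direction.

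**Figure D2:**
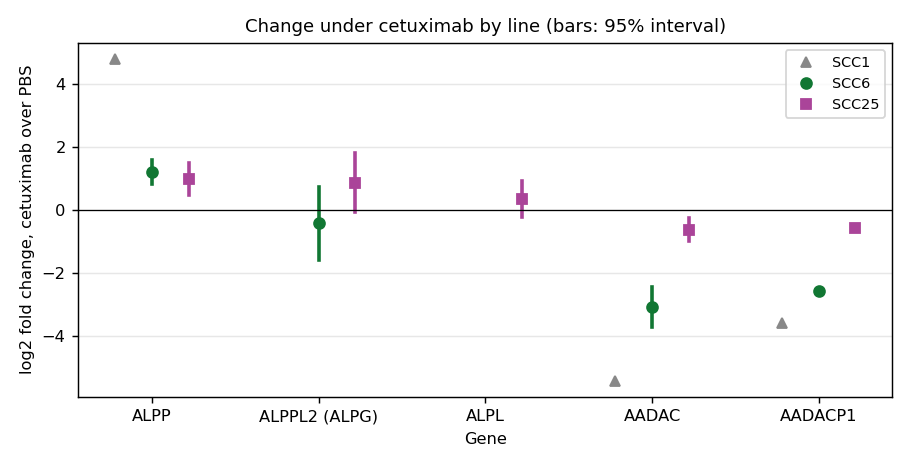
Log2 fold change of cetuximab over PBS on days 1 to 5 for ALPP, ALPPL2, ALPL, AADAC and AADACP1, with triangles for SCC1, circles for SCC6 and squares for SCC25; bars are 95% intervals and are not drawn for SCC1 and AADACP1, whose values are a description. ALPP lies above 0 in each line and AADAC below 0 in each line, at -5.40, -3.07 and -0.62; ALPPL2 in SCC1 and ALPL in SCC1 and SCC6 are left out because of counts near 0.

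In treated SCC6 the slope of AADAC passed the test, at -0.49 log2 units per day (SE 0.105, edgeR adjusted p = 0.0122), where 20.1% of genes had a slope past the threshold. Without library 2b the slope was -0.39 with an adjusted p of 0.0952. The treated SCC6 libraries 2a, 2b and 3 were on one flow cell and those of days 4 and 5, the deepest of all, on another, so day and flow cell cannot be told apart. In treated SCC1 the slope of AADAC was -0.41 per day and that of ALPP 0.39 per day, in a fit where 4.46% of genes passed. Both are a description, since these libraries also served the choice of the 2 genes. With 1 library left out the slope ranged from -0.62 to -0.30 for AADAC and from 0.30 to 0.49 for ALPP. In treated SCC6 the slope of ALPP was 0.18 (edgeR adjusted p = 0.106), and the contrast of days 4 and 5 with the earlier libraries was 0.56 (edgeR adjusted p = 0.036), which is also the contrast of these flow cells. With PBS, the slopes of ALPP and AADAC in SCC6 and of AADAC in SCC25 did not pass (edgeR adjusted p from 0.169 to 0.991). Untreated SCC1 had slopes of -0.25 for ALPP and 0.09 for AADAC, in a fit where 2.45% of genes passed. They too are a description. Dropping 1 SCC1 sample at a time moved the ALPP slope between -0.93 (PBS day 5 dropped) and 0.39 (PBS day 1 dropped).

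ALPL, the tissue-nonspecific form, was detected at a low level in SCC25 only. There it had 30 to 87 counts with PBS and 44 to 79 with cetuximab. The levels were 0.736, 0.757, 0.716, 0.974 and 1.76 CPM on days 1 to 5 of PBS, 0.915 CPM on day 0, and 1.05, 1.39, 1.11, 1.70 and 1.10 CPM with cetuximab. Treated was above PBS on days 1 to 4 and below it on day 5, and the groups overlapped. The log2 fold change was 0.37 (SE 0.26, 95% interval -0.20 to 0.93, edgeR adjusted p = 0.36), and without the PBS library of day 5 it was 0.70 with an adjusted p of 0.0275. An annotated gene model lies inside ALPL, and its share of these reads was not analysed here.

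In the 22 libraries of SCC1 and SCC6, ALPL had 4 counts in all, in 3 libraries. Untreated SCC6 had none on days 1 to 5. Taking 3 counts per library as the limit that a count of 0 allows, ALPL with PBS was at least 9.93-fold lower in SCC6 than in SCC25. Treated SCC1 also had none and was at least 17.9-fold lower than treated SCC25 by the same limit.

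ALPI, the intestinal form, was near absent from the counts of all 3 lines. It had 5 counts in all, in 3 of 33 libraries and at most 2 in one, and a count of 0 allows a level of up to 0.115 CPM in the shallowest library and 0.0402 CPM in the deepest. No change of ALPI was detectable at this depth. Thus of the chromosome 2 genes, with like sequences before their starts, ALPP and ALPPL2 were counted and ALPI hardly at all.

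ALPPL2, the germ-cell form, followed ALPP in part, at a lower level. In SCC1 it had 0, 2, 0, 2 and 2 counts on days 1 to 5 of PBS and 15, 47, 51, 93 and 144 with cetuximab, up to 3.47 CPM, so that the groups did not overlap. Within treated SCC1 its slope was 0.74 log2 units per day, and 0.61 to 0.83 with 1 library left out. This slope is a description, since the estimation divided reads between ALPPL2 and ALPP, which was chosen in these libraries. In SCC6 it was at 0.247, 0.445, 0.689, 1.44 and 3.18 CPM on days 1 to 5 of PBS, and between 0.656 and 1.14 CPM with cetuximab.

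The untreated climb of ALPPL2 in SCC6 had a slope of 0.92 per day (SE 0.104, edgeR adjusted p = 0.000552), in a fit where 15.6% of genes passed and the library of day 1 was on another flow cell than the rest. This call was kept in 2 of 3 alternatives that left no library out. Its treated level did not differ from PBS past the threshold (log2 fold change -0.42, 95% interval -1.57 to 0.74, edgeR adjusted p = 0.589), and without the PBS library of day 5 the sign turned (0.32, adjusted p = 0.602). It was above the PBS library of the same day for 2a, 2b and day 3 and below it on days 4 and 5.

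In SCC25 with PBS, ALPPL2 was at 2.19 CPM on day 0 and 3.50, 4.11, 8.12, 12.3 and 24.4 CPM on days 1 to 5, with a slope of 0.73 per day (SE 0.0664, edgeR adjusted p = 0.000682). With cetuximab it was at 18.0, 21.0, 14.2, 21.9 and 20.9 CPM, without a slope past the threshold (0.05 per day, edgeR adjusted p = 0.788). Treated libraries were thus above those of PBS on days 1 to 4 and below on day 5. The fold change over all days was not past the threshold (0.88, 95% interval -0.05 to 1.81, edgeR adjusted p = 0.175), but passed with day as a block (1.18, adjusted p = 0.0442) and without the PBS library of day 5 (1.48, adjusted p = 0.00954). Without that library the slope with PBS was 0.64 and its adjusted p 0.0537. As a contrast of days 4 and 5 with days 1 to 3 the climb did not pass with edgeR, and neither did any other gene.

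ALPPL2 made up between 0 and 2.24% of the summed ALPP and ALPPL2 level in SCC1, between 0.189 and 1.93% in SCC6 and between 5.88 and 13.98% in SCC25. In untreated SCC25 the share was lowest on day 2 and highest on day 5, and with cetuximab it stayed between 8.71 and 10.3%. The slopes with PBS were therefore measured for both genes, with reads that the estimation divided between them.

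AADACP1 was also lower with cetuximab in each line, and since it was chosen after its values were seen, these are given as a description without a test. In SCC1 it was at 21.3, 38.4, 43.8, 36.1 and 25.2 CPM on days 1 to 5 of PBS and at 3.90, 3.28, 3.24, 2.10 and 1.11 CPM with cetuximab, without overlap. In SCC6 its mean was 29.0 ± 4.53 CPM with PBS and 5.01 ± 2.37 with cetuximab (SD, n = 5 each), a log2 fold change of -2.57. In SCC25 it was 1.94 ± 0.336 and 1.30 ± 0.133 CPM, between 1.68 and 2.36 CPM with PBS and between 1.10 and 1.47 treated, a log2 fold change of -0.57. Adding the flow cell to the fit gave -0.47.

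**Figure D3:**
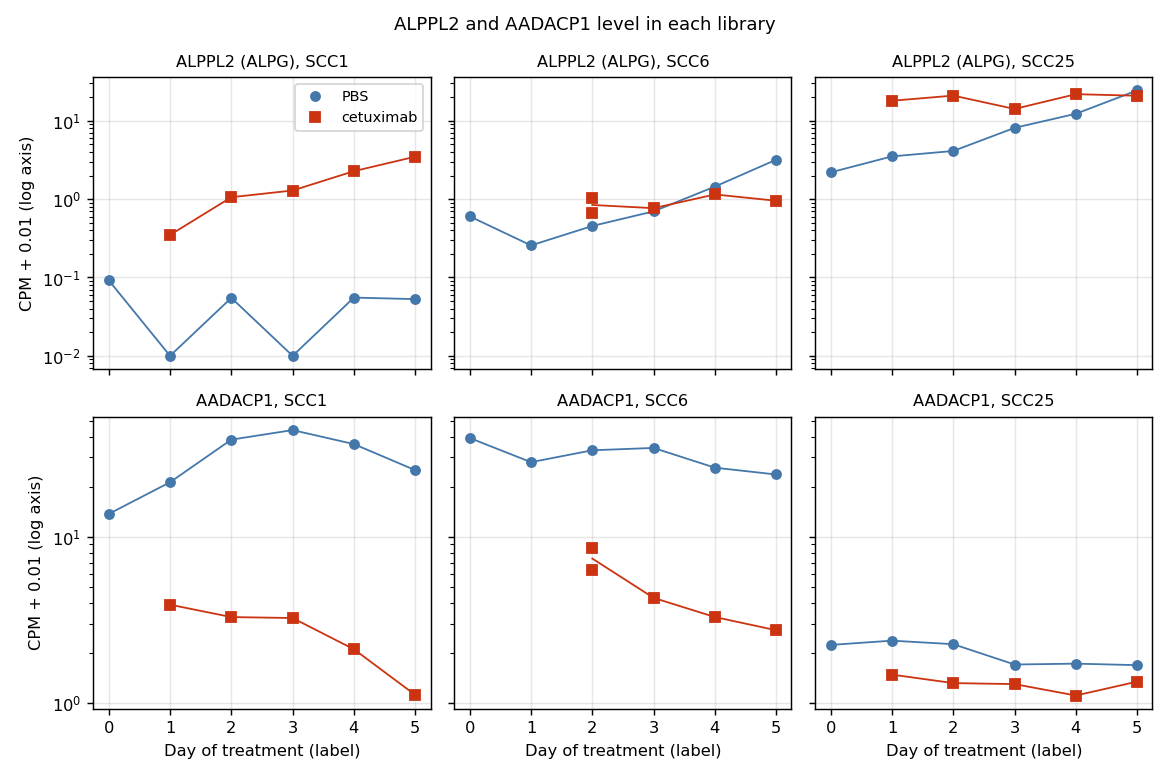
ALPPL2 (upper row) and AADACP1 (lower row) level as CPM + 0.01 on a log axis against the labelled day, for SCC1, SCC6 and SCC25; each point is 1 library, circles are PBS and squares are cetuximab. ALPPL2 climbs with PBS in SCC6 and SCC25, up to 3.18 and 24.4 CPM on day 5, and AADACP1 is lower with cetuximab on each day in each line.

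The protein-coding neighbours of the members gave a view of their surroundings, from the 5 nearest on each side other than the genes described above. Of the 8 neighbours of ALPP, 4 were tested in each line. In SCC1, where 22.1% of all genes were called lower, 2 of them fell, among them PTMA, a chromatin-linked acidic protein, by 0.39 on the log2 scale (SE 0.0851, edgeR adjusted p = 0.00231), and none was called in SCC6 or SCC25. DIS3L2, an exonuclease gene just before ALPP, had a log2 fold change of 0.13 in SCC6 (SE 0.0875, edgeR adjusted p = 0.288).

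Of the 10 neighbours of AADAC, 6 were tested in SCC1, where 3 fell beside the same share, 4 in SCC6 and 6 in SCC25, with none called in either. RAP2B, a small GTPase, fell by 0.78 in SCC1 (SE 0.0977), with an edgeR adjusted p under 0.05. Around ALPL, 2 neighbours rose and 2 fell of 8 tested in SCC1, 3 rose and 0 fell of 8 in SCC6, and 0 rose and 1 fell of 9 in SCC25. Over all genes 44.8%, 30.1% and 18.3% were called in these lines. HSPG2, which encodes perlecan, rose by 1.49 in SCC1 (SE 0.213) and 1.42 in SCC6 (SE 0.313), and SH2D5 fell by 2.35 in SCC1 (SE 0.28) and 1.11 in SCC25 (SE 0.133). Of the 3 neighbours of ALPI tested, none was called in any line.

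Genes that build and attach the GPI anchor, on which alkaline phosphatases depend for their place on the membrane, were followed as a list. All 28 were tested in each line. In SCC1, 12 rose and 2 fell, beside 44.8% of all genes called in either direction and 22.7% called higher, with a median log2 fold change of 0.13 beside 0.02 over all genes. In SCC6, 3 rose and 1 fell (median -0.08 beside 0.00, with 30.1% of all genes called), and in SCC25, 4 rose and 2 fell (median 0.03 beside 0.01, with 18.3% called). PGAP3, a lipid-remodelling enzyme of the anchor, had the largest change in SCC1, from 9.03 ± 0.953 to 22.9 ± 3.90 CPM (SD, n = 5 each, log2 fold change 1.36), and in SCC6, with a log2 fold change of 1.05 (SE 0.3, edgeR adjusted p = 0.02). PIGT, a transamidase subunit and the most abundant of the list, differed by 0.19 in SCC1 (edgeR adjusted p = 0.042) and did not pass in SCC6 (0.17, adjusted p = 0.275) or SCC25 (-0.01, adjusted p = 0.937).

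Of 22 genes of pyrophosphate, phosphate, nucleotide and vitamin B6 handling, 2 rose and 4 fell of 15 tested in SCC1. In SCC6, 4 rose and 5 fell of 16, and in SCC25, 2 rose and 2 fell of 17, beside 44.8%, 30.1% and 18.3% of all genes called in these lines. NT5E, the ecto-nucleotidase CD73 that is also held by a GPI anchor, fell by 3.18, 2.07 and 0.62 log2 units in SCC1, SCC6 and SCC25 (SE 0.21, 0.271 and 0.0759), the same order of lines as for AADAC. SLC20A1, a phosphate transporter, fell by 1.32, 1.49 and 0.80 (SE 0.0792, 0.136 and 0.0652). PPA1, a cytosolic pyrophosphatase, fell by 0.43 in SCC6 (SE 0.122, edgeR adjusted p = 0.0205) and did not pass in SCC1 (-0.10, adjusted p = 0.219) or SCC25 (-0.08, adjusted p = 0.413).

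Of 14 genes of the arylacetamide deacetylase family, carboxylesterases and related esterases, 8 were tested in SCC1, where 4 rose and 2 fell. In SCC6, 1 rose and 1 fell of 5, and in SCC25, 3 rose and none fell of 9. Over all genes 44.8%, 30.1% and 18.3% were called. NCEH1, the AADAC relative that hydrolyses cholesterol esters and their like, fell by 0.93 in SCC1 (SE 0.0851) and 1.16 in SCC6 (SE 0.227, edgeR adjusted p = 0.00279), and in SCC25 had a log2 fold change of -0.15 (edgeR adjusted p = 0.132). PON2, a lactonase, rose by 0.38 in SCC1 and 0.21 in SCC25, and CES4A, a carboxylesterase, by 1.13 and 0.65 in these lines.

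Of 22 genes of neutral lipid hydrolysis and storage, 4 rose and 4 fell of 16 tested in SCC1, 1 rose and 4 fell of 16 in SCC6, and 1 rose and 3 fell of 18 in SCC25. These counts stand beside 44.8%, 30.1% and 18.3% over all genes. LIPA, the lysosomal acid lipase, rose by 0.42 in SCC1 (SE 0.0642) and 0.37 in SCC25 (SE 0.0807) and had a log2 fold change of 0.01 in SCC6 (edgeR adjusted p = 0.976). FABP5, an epidermal fatty acid carrier, fell by 1.23 in SCC6 (SE 0.225) and 0.54 in SCC25 (SE 0.118) and was not called in SCC1 (0.41, edgeR adjusted p = 0.0975).

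Genes of the tissues from which the members take their names were measured beside them. Of 18 intestinal genes, 2 rose and 1 fell of 5 tested in SCC1, none rose and 1 fell of 6 in SCC6, and 1 rose and 2 fell of 7 in SCC25. ANPEP, a brush-border peptidase, fell by 2.63 in SCC1 (SE 0.223) and 0.79 in SCC25 (SE 0.101), and KLF5, a transcription factor of intestinal crypts and of squamous epithelium, rose by 0.53 in SCC1 (SE 0.123) and fell by 0.82 in SCC6 (SE 0.106) and 0.33 in SCC25 (SE 0.0922). Of 22 placental genes in the table, 5 rose and 1 fell of 8 tested in SCC1, 3 rose and 1 fell of 13 in SCC6, and 2 rose and 1 fell of 13 in SCC25. For both lists the shares over all genes were again 44.8%, 30.1% and 18.3%. KISS1, a placental peptide gene, had the largest change of its list in SCC1, a fall by 3.03 log2 units (SE 0.434) from 0.725 ± 0.325 to 0.0850 ± 0.0530 CPM (SD, n = 5 each). TFAP2C, a trophoblast transcription factor, rose by 1.10 in SCC1 (SE 0.112), from 7.39 ± 1.19 to 15.6 ± 1.35 CPM (SD, n = 5 each), and had log2 fold changes of 0.11 in SCC6 (edgeR adjusted p = 0.45) and -0.01 in SCC25 (edgeR adjusted p = 0.924). PSG5, a pregnancy-specific glycoprotein, rose by 1.61 in SCC6 (SE 0.41) and 1.00 in SCC25 (SE 0.248). Of the 5 hepatocyte markers, ALB was at or under 0.0508 CPM in every library and TTR and CYP3A4 at or under 0.280 CPM. APOB reached 0.303 CPM in SCC25. Their sum was carried by SERPINA1 and was lower with cetuximab in SCC1, from 7.04 to 14.5 CPM with PBS and from 3.30 to 5.98 CPM treated. Between PBS and cetuximab it overlapped in SCC6, at 0.216 to 0.752 and 0.183 to 0.437 CPM, and in SCC25, at 1.75 to 2.65 and 2.45 to 2.97 CPM. AADAC was lower with cetuximab in each line, and the part of this sum in its difference was not tested.

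**Figure D4:**
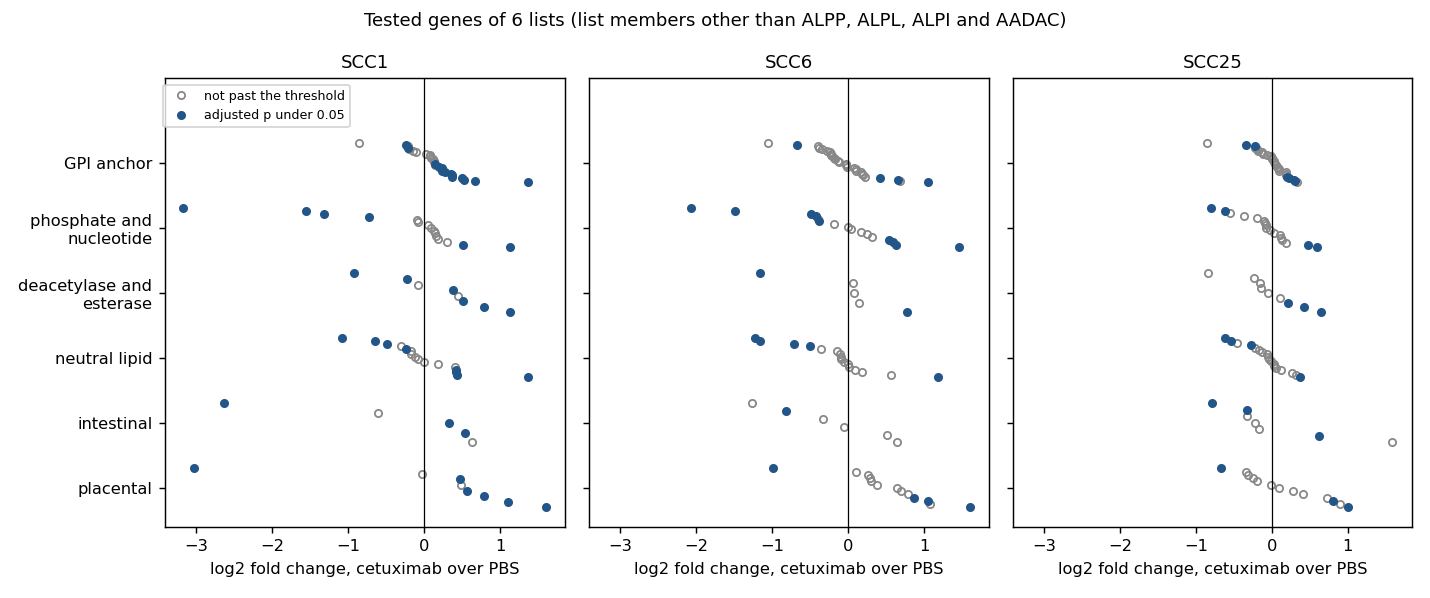
Log2 fold change of cetuximab over PBS for the tested genes of 6 lists in SCC1, SCC6 and SCC25; each point is 1 gene, filled where the edgeR adjusted p was under 0.05 and open otherwise, with points spread vertically by rank within a list. Most GPI anchor genes lie near 0, while NT5E marks the lowest point of the phosphate and nucleotide list in SCC1 and SCC6, at -3.18 and -2.07.

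Genes with the most similar pattern were found by Pearson correlation of log2 CPM over libraries, which share lines and treatments and are no independent points, so r is a description. Over the 33 libraries ALPP was most like PERP, a desmosomal gene (r = 0.96), WNT10A, LINC00511, SLC25A27 and RASSF6 (r = 0.93 or more). AADAC was most like RP11-64D22.5 (r = 0.93), ELK3, STAMBPL1, RP11-486M23.3 and LAT2. ALPL, present in SCC25 only, was most like CXCL14, MYOM2, RP11-116G8.5, IQCA1 and NHLH2, each with r = 0.99.

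Within the 11 SCC1 libraries the leading genes for ALPP were SLC7A7, FAM46B, SLC15A2, CLCA2 and LAPTM4A, and those for AADAC were PHLDA1, MMP3, AADACP1, NT5E and NRP1, all with r of at least 0.99 and all moving with the separation of the treatments. ALPP and AADAC had r = -0.99 there and r = -0.81 over all 33 libraries.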

How the data were processed

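Counts for 33 bulk RNA-seq libraries (poly(A)-enriched, stranded kit) were used. The authors inferred transcript levels with Salmon (0.8.2 in the submitters' processing notes, which name hg19/GRCh37) and imported them with tximport; the deposited values are estimated counts per gene symbol, not normalised between libraries. The annotation release is not given in the sources used here. Of all values 63.2% were whole numbers. Counts were rounded, genes with low counts removed with filterByExpr, libraries scaled by TMM, and genes tested two-sided with edgeR 4.0.16's quasi-likelihood test in R 4.3.3, with Benjamini-Hochberg adjustment over all genes tested and a threshold of 0.05. CPM used TMM factors over all 33 libraries, and log2 ratios a pseudocount of 0.1 CPM. Day 0 entered no test but an alternative. Standard errors were derived from the F statistic. No libraries had identical values.

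The members and gene lists were chosen with earlier results of these data known. Named were the members and ALPPL2, and from each list up to 3 genes with the highest median CPM and, per line, the called gene with the largest change, as well as the 5 genes most like each member and the 5 nearest protein-coding neighbours on each side. Not every gene that this rule names is described, and 1 neighbouring gene and 1 pair of coding stretches are not reported here. ALPP and ALPPL2 counts were summed in an alternative chosen after seeing the data. Alternatives were DESeq2 1.42.0, its size factors, no filter, each library left out, day as a block, flow cell as a covariate, day 0 added, and periods in place of slopes. The labels give the same day to a PBS and a cetuximab library. Their deviations from the group means correlated by 0.122 to 0.403 in SCC1, 0.228 to 0.594 in SCC25 and -0.194 to 0.591 in SCC6. Positions, transcripts and neighbours came from GENCODE on GRCh37, and sequences before the start from RefSeq (GRCh38.p14), read in Python 3.11.15 with Biopython 1.88. The fits were tested on simulated data. Limits from counts of 0 cover counting error only.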

Additional observations from a re-analysis of the deposited data

Results flagged for a closer look

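Of 25 groups of 5 libraries examined for a library far from the others, 2 were flagged, and chance flags about 1 in 20. ALPP in cetuximab-treated SCC25 was at 134 CPM on day 3, against 189 to 199 CPM on the other days. ALPL in PBS-treated SCC25 was at 1.76 CPM on day 5, against 0.716 to 0.974 CPM on the other days.

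The response to cetuximab differed between lines by the interaction test of edgeR for AADAC, by -2.46 log2 units in SCC6 relative to SCC25. For AADACP1, chosen after its values were seen, the difference was -2.01, given as a description. Both genes were lower with cetuximab on each matched day in both lines.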

How the results depend on the processing

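Of 208 alternatives in which no library was left out, 194 kept their result, and of 510 that left out 1 library, 471 did. For the SCC1 difference between treatments this meant the same direction and a shift under 1 pooled SD of log2 CPM. For levels in CPM it meant a shift under 1 SD, and neither used a threshold. For all other fits it meant the same direction and side of the threshold, also where the text gives only a description. The cause of the changes below was not tested. With the flow cell as a covariate, edgeR gave AADAC in SCC25 a change of -0.61 (adjusted p = 0.132). ALPP in SCC6 over SCC25 with PBS was 0.50 without a filter on low counts (edgeR adjusted p = 0.0648) and 0.48 with ALPP and ALPPL2 summed, an alternative chosen after seeing the data. With days 4 and 5 set against the earlier days in place of a slope, the log2 difference was 0.56 for ALPP in treated SCC6 and 0.97 in untreated SCC25. With PBS it was -0.13 for AADAC and -0.18 for AADACP1 in SCC1, and -0.0097 for AADAC in SCC25, all against slopes just above 0. The slope of AADAC in SCC25 did not pass. That of ALPPL2 in untreated SCC25 did, but its contrast of days 4 and 5 with days 1 to 3 did not. The pairing by day, taken as a block, changed 1 call among the members and ALPPL2, that of ALPPL2 in SCC25 (1.18, edgeR adjusted p = 0.0442). DESeq2 gave no adjusted p for the slope of ALPPL2 in untreated SCC1. CPM under the size factors of DESeq2 moved by less than 1 SD.

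When 1 library at a time was dropped, the slope in treated SCC1 was 0.30 to 0.49 for ALPP and -0.62 to -0.30 for AADAC. In untreated SCC1 it was -0.93 to 0.39 for ALPP, -0.19 to 0.27 for AADAC and -0.21 to 0.23 for AADACP1. In SCC6, the slope of AADAC was -0.63 to -0.39 with cetuximab and -0.13 to 0.092 with PBS, and the fold change of ALPPL2 was -0.68 to 0.32. In SCC25, the fold change was 0.24 to 0.70 for ALPL and -0.69 to -0.48 for AADAC. Treated slopes in SCC25 were -0.046 to 0.034 for ALPP, -0.038 to 0.18 for ALPL and -0.15 to 0.033 for AADAC, and PBS slopes 0.34 to 0.40 for ALPP and -0.044 to 0.21 for AADAC. ALPP in SCC6 over SCC25 with PBS was 0.47 to 0.87, and the difference of its responses -0.0096 (without the SCC25 PBS library of day 5) to 0.39.

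Counts of called genes moved more. With the flow cell as a covariate, 4197 genes in place of 8061 passed in SCC1 and 1417 in place of 3496 in SCC25. With day as a block, 7961 in place of 5238 passed in SCC6, and 6623 in place of 2992 for the difference of responses. For slopes, DESeq2 gave 1261 in place of 802 genes in treated and 968 in place of 440 in untreated SCC1, and 471 in place of 209 and 773 in place of 426 in SCC25. As periods with edgeR, none passed in SCC1 and SCC25, where 1883 (treated SCC1), 1717 (PBS), 1330 (treated SCC25) and 1691 (PBS) had an unadjusted p under 0.05, and 1959 in place of 3500 passed in treated and 25 in place of 2709 in untreated SCC6. Periods were not run with DESeq2. With 1 library left out, treated and PBS slopes were called for 69 to 1414 and 169 to 448 genes in SCC1, 306 to 5122 and 337 to 3943 in SCC6, and 17 to 1479 and 17 to 1465 in SCC25, the cetuximab contrast of SCC25 for 2193 to 4006 and the difference of responses for 2173 to 4570. Depth limits ALPI in all lines and ALPL in SCC1 and SCC6, which were at or under 3 counts per library.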
